A study of Mus musculus with 24 samples.

Results

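The class I phosphoinositide 3-kinase (PI3K) subunits are described here across 4 treatment groups of mouse bone marrow. They were taken by symbol from the table of gene counts: 4 catalytic subunits (Pik3ca, Pik3cb, Pik3cd and Pik3cg) and 5 regulatory subunits (Pik3r1, Pik3r2, Pik3r3, Pik3r5 and Pik3r6), so 9 of the 24421 genes listed. All 9 passed the filter on low counts and stand among the 12742 genes tested. The RNA came from unsorted mononuclear cells of the bone marrow, and all donors were Shp2 E76K mice, which have an activating substitution in the phosphatase encoded by Ptpn11. The mice received vehicle, ACP196 (an inhibitor of the kinase BTK), ACP319 (an inhibitor of the PI3K catalytic subunit p110δ), or both inhibitors, for 3 weeks. Each group had 3 specimens, with replicate numbers 1 to 3 (vehicle), 4 to 6 (BTK inhibitor), 7 to 9 (PI3K inhibitor) or 10 to 12 (combination). Every group carried Shp2 E76K, so vehicle is a mutant control and no group without the allele was compared. Doses, ages and the driver of the allele are not stated in the labels. Whether every replicate number stands for its own animal is not stated either, so the p-values below cover only specimen-to-specimen spread, which may be technical.

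Class I PI3Ks phosphorylate the membrane lipid PIP2 to PIP3, which recruits kinases such as AKT and BTK to the membrane. Class IA enzymes pair a catalytic subunit (p110α, p110β or p110δ, from Pik3ca, Pik3cb and Pik3cd) with a regulatory subunit from Pik3r1, Pik3r2 or Pik3r3, and act below receptor and cytokine-linked tyrosine kinases. The class IB enzyme p110γ, from Pik3cg, pairs with p101 (Pik3r5) or p84 (Pik3r6) and acts below G protein-coupled receptors. p110δ and p110γ are the catalytic subunits known for blood cells, while p110α and p110β are made in most tissues.

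The promoters of the catalytic subunit that ACP319 inhibits and of the class IB pair are shown as examples, since these genes recur in the results below, as Pik3cb also does. RefSeq entries matched 8 of the 9 members, all but Pik3r6. Each run is RefSeq sequence of build GRCm38.p6, from 250 bases before to 50 bases after the annotated start. Capitals mark the letters GAGGAA or TTCCTC (called a PU box here, the core bound by the myeloid and lymphoid factor PU.1) and GGGCGG or CCGCCC (a GC box, bound by SP1 and its relatives), each searched on both strands.
Pik3cd, minus strand of chr4:149698659-149698958: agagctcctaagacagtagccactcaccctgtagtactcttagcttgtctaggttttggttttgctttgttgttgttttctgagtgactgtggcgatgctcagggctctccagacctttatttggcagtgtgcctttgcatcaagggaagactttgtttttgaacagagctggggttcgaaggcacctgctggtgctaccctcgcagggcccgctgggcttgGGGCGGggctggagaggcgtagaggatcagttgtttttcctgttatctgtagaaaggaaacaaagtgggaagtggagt
Pik3cg, minus strand of chr12:32208610-32208909: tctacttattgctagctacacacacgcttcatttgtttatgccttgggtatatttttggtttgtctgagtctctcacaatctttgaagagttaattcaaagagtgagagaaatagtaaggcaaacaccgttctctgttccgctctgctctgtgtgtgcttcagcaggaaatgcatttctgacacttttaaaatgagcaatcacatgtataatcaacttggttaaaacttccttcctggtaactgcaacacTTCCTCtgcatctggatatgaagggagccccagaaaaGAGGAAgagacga
Pik3r5, plus strand of chr11:68431875-68432174: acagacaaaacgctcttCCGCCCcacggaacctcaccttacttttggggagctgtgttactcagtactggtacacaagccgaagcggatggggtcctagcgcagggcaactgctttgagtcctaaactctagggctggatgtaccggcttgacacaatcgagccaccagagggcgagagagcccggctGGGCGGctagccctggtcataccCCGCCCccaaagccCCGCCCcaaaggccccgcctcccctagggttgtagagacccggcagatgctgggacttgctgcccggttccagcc
The Pik3cg window held 2 PU boxes, no GC box and 4 CG pairs. The Pik3r5 window held no PU box, 4 GC boxes and 16 CG pairs, and that of Pik3cd held 1 GC box and 6 CG pairs. Of 32851 promoters of this length, 28.3% held a PU box and 35.7% a GC box, and the median was 7 CG pairs. The windows of the widely expressed subunits held more CG pairs: 44 for Pik3cb, 36 for Pik3r2, 34 for Pik3r1 and 20 for Pik3ca, and that of Pik3r3 held 14. A PU box was also present in the window of Pik3r3 (1). GC boxes numbered 4 for Pik3cb, 4 for Pik3r1, 2 for Pik3r2, 1 for Pik3ca and 1 for Pik3r3. The start shown for Pik3cd lies 2921 bases inside the 5′ end of the gene in the count table, and RefSeq lists 3 starts for it. That of Pik3ca lies 39086 bases from the table's 5′ end of the gene. A match of letters is a description of the window, not a binding site.

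Library totals ran from 16038577 to 22154833 counts in 11 specimens and came to 8993950 in BTK inhibitor replicate 5, where the ribosomal RNA repeat Rn45s took 15.4% of counts against 0.203% to 0.773% elsewhere. The specimens also differed in how level depended on gene length. For each gene, log2 CPM (CPM, counts scaled to library size) was taken relative to its mean over the 12 specimens. The slope of these relative values on log2 length was 0.22 ± 0.16 in vehicle and 0.21 ± 0.10 in the combination. It was -0.15 ± 0.29 with the BTK inhibitor and -0.28 ± 0.16 with the PI3K inhibitor (mean ± SD, n = 3). The 9 subunit genes are long, from 3159 bases (Pik3r2) to 8917 (Pik3ca) against a median of 2835 over tested genes, so responses are also given beside those of genes of like length and with a length offset. In that fit, each library's trend of level on length was removed before testing.

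Per kilobase of gene length, Pik3cd was the most abundant class I subunit transcript in 12 of 12 specimens and Pik3r3 the least abundant in 12 of 12. In vehicle, Pik3cd stood at 41.1 ± 4.99 CPM per kilobase (SD, n = 3), a level above that of 86.6% of tested genes. Pik3cg, the catalytic subunit of class IB, followed at 22.3 ± 7.92 and its partner p101 (Pik3r5) at 17.8 ± 0.888. Pik3cb stood at 16.6 ± 4.77, and Pik3r1, which encodes p85α and its shorter forms, at 11.4 ± 2.77. Both p84 (Pik3r6, 9.60 ± 2.15) and p85β (Pik3r2, 8.5 ± 3.07) lay near the middle of all genes, and p110α (Pik3ca) stood at 5.31 ± 1.09. Pik3r3, which encodes p55γ, stood at 0.129 ± 0.0535, above only 2.66% of tested genes and with 1 to 33 counts per library.

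Of the neighbours in this order, the vehicle ranges were apart only for Pik3cd over Pik3cg and for Pik3ca over Pik3r3. Pik3cg exceeded Pik3r5 in 8 of 12 specimens, Pik3r5 exceeded Pik3cb in 4 of 12 and Pik3r6 exceeded Pik3r2 in 4 of 12, so these neighbours traded places. Pik3r1 exceeded Pik3r6 and Pik3r2 exceeded Pik3ca in 11 of 12 specimens each, and Pik3cb exceeded Pik3r1 in 9 of 12.

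**Figure D1:**
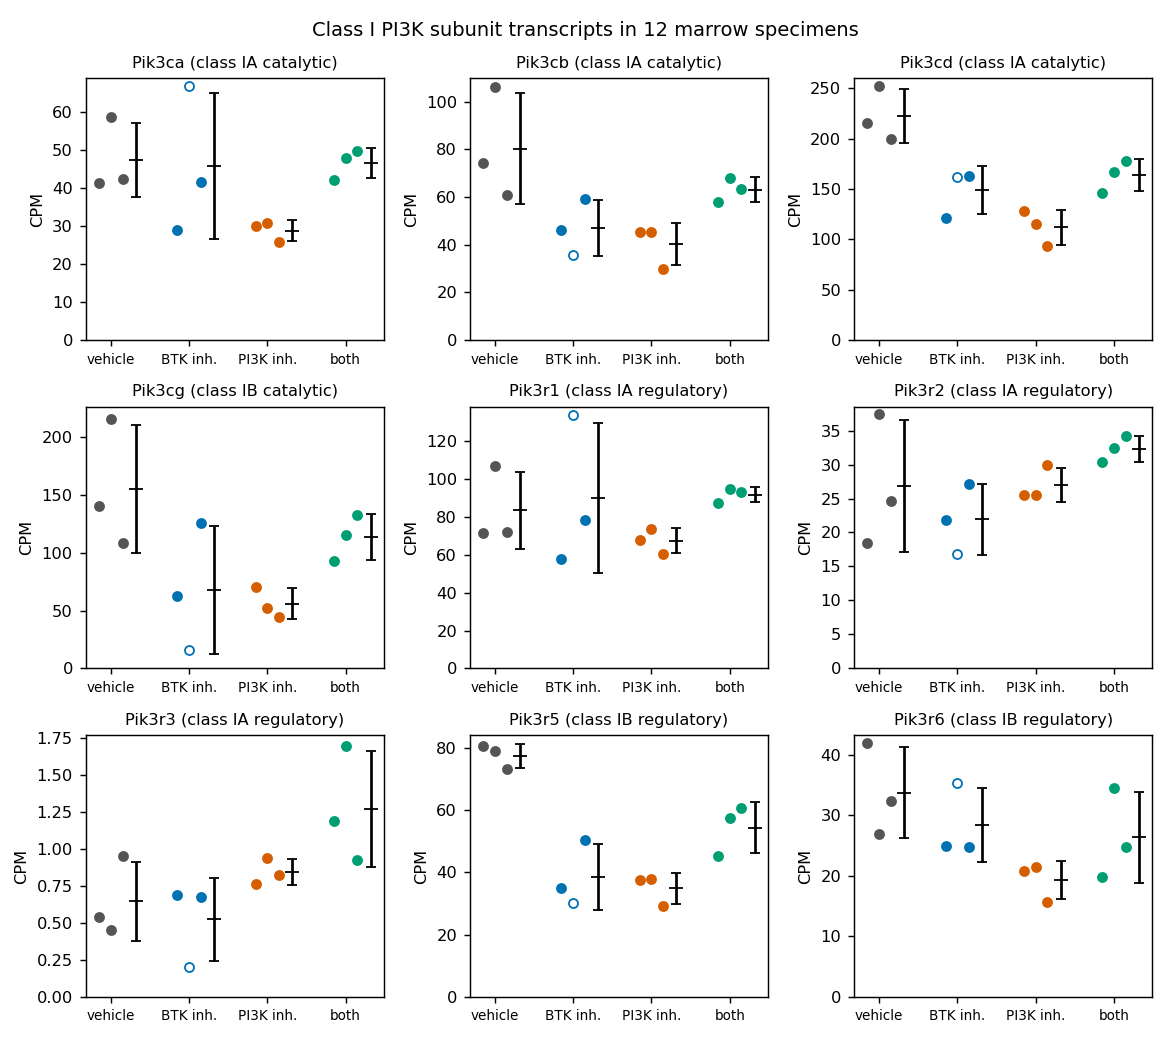
CPM of each class I PI3K subunit (vertical axis, a separate linear scale from 0 for each gene) in each specimen (points) by treatment group, with the group mean ± SD (bars, n = 3). The open circle is BTK inhibitor replicate 5, which had 15.5 CPM of Pik3cg and the highest Pik3ca and Pik3r1 of all 12 specimens, and Pik3r5 was below every vehicle specimen in all 9 treated ones.

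Pik3cd held the largest share of catalytic subunit transcript in every specimen, and that share did not pass a test between groups. Its part of the summed CPM per kilobase of the 4 catalytic genes was 49.8%, 43.9% and 52.8% in vehicle and 50.8%, 63.7% and 46.3% with the BTK inhibitor. It was 50.8%, 51.2% and 52.8% with the PI3K inhibitor and 47.5%, 46.3% and 46.6% with both. BTK inhibitor replicate 5 was the highest, and the groups overlapped except that the combination lay below the PI3K inhibitor group. An exact permutation test of the one-way F statistic over the 4 groups gave p = 0.426. The permutation p was 0.737 after Benjamini-Hochberg adjustment over the 2 ratios tested. The other ratio, Pik3r5 to Pik3cg per length, had means of -0.27 ± 0.46 (vehicle), 0.27 ± 1.21 (BTK inhibitor), 0.01 ± 0.22 (PI3K inhibitor) and -0.38 ± 0.06 (combination) on the log2 scale (SD, n = 3), with an exact permutation p = 0.737.

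The remaining catalytic transcript was mostly Pik3cg and Pik3cb. Pik3cg held 25.7% ± 3.45 in vehicle, 17.7% ± 11.8 with the BTK inhibitor, 19.9% ± 1.86 with the PI3K inhibitor and 25% ± 1.81 with both (SD, n = 3). Its lowest share was 4.75%, in BTK inhibitor replicate 5, where Pik3ca held 15.9% against 5.77% to 8.77% in the other 11 specimens. Pik3cb held from 15.7% to 22.4% in single specimens.

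**Figure D2:**
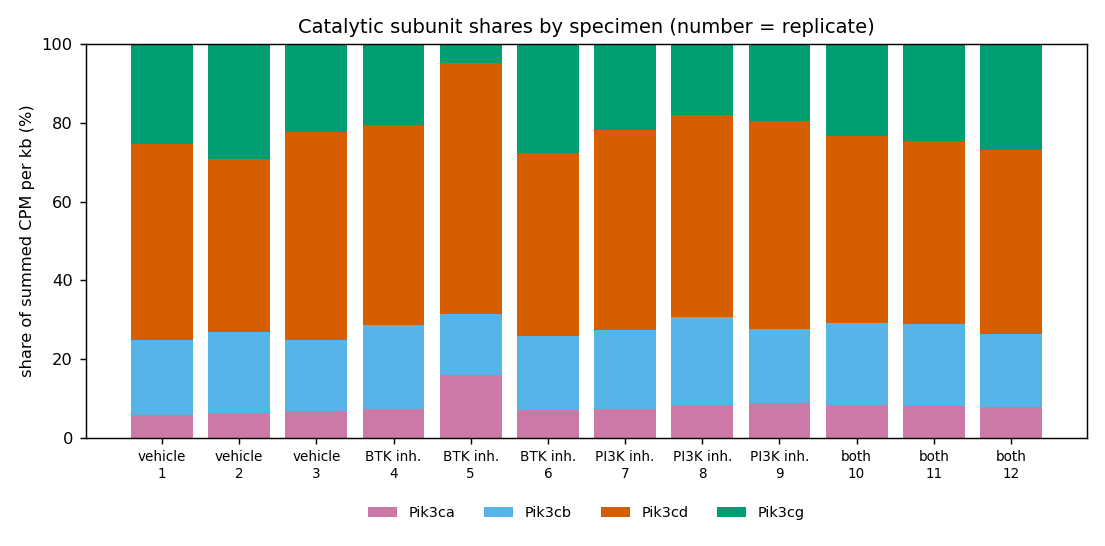
Share of each catalytic subunit (colours) in the summed CPM per kilobase of the 4 catalytic genes (vertical axis, %), in each of the 12 specimens (bars, by group and replicate number). Pik3cd was the largest part of every bar, from 43.9% to 63.7%, and BTK inhibitor replicate 5 stood apart with 4.75% Pik3cg.

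With the PI3K inhibitor alone, Pik3cb, Pik3cd and Pik3r5 fell to about the same degree relative to vehicle, and no subunit rose. Of the 9 subunits, 7 had negative differences, and their median was -0.81 on the log2 scale against -0.01 over all tested genes. In the quasi-likelihood test of edgeR (Benjamini-Hochberg adjusted over all genes), 3 of 9 subunits were lower at an adjusted p under 0.05, where 5.82% of all genes were lower and 10.7% changed in either direction. Of genes of like length, 13% were called in either direction around Pik3cd, 10.6% around Pik3cb and 8.76% around Pik3r5. In 6 of 9 subunits every PI3K inhibitor specimen lay below every vehicle specimen, as it did in 26.3% of all genes. The transcript of the drug's own target, Pik3cd, was among those that fell, and genes of like length around it had a median difference of -0.59.

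Pik3cd, which encodes p110δ, stood at 215, 252 and 199 CPM in vehicle and at 128, 115 and 93.4 CPM with the PI3K inhibitor. The groups did not overlap, and the log2 difference was -0.99 with an SE of 0.23 (edgeR adjusted p = 0.0403). Pik3cb, which encodes p110β, stood at 74.1, 106 and 61.0 CPM in vehicle and at 45.4, 45.2 and 29.9 with the drug, a log2 difference of -1.0 with an SE of 0.28 (edgeR adjusted p = 0.0436). All 3 treated specimens were below the lowest vehicle specimen. Pik3ca, which encodes p110α, stood at 41.2, 58.6 and 42.2 CPM in vehicle and at 29.9, 30.7 and 25.6 with the drug, without overlap. Its log2 difference of -0.72 did not pass (edgeR adjusted p = 0.0969).

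In class IB, Pik3r5, which encodes the adaptor p101, stood at 80.5, 78.9 and 73.1 CPM in vehicle and at 37.7, 37.7 and 29.2 with the PI3K inhibitor. The vehicle specimens lay close together, well above the treated ones, and the log2 difference was -1.15 with an SE of 0.24 (edgeR adjusted p = 0.0388). Pik3cg stood at 141, 216 and 109 CPM in vehicle and at 70.6, 52.5 and 44.6 with the drug. Again no treated specimen reached a vehicle specimen, but with an SE of 0.53 the log2 difference of -1.47 did not pass (edgeR adjusted p = 0.0747). Pik3r6, the p84 adaptor, stood at 41.9, 27.0 and 32.4 CPM in vehicle and at 20.7, 21.4 and 15.7 with the drug, also without overlap and with an edgeR adjusted p = 0.0678.

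The class IA regulatory subunits differed little. Pik3r1 stood at 71.5, 107 and 72.3 CPM in vehicle and at 68.1, 73.7 and 60.5 with the PI3K inhibitor, which overlap, and its log2 difference was -0.31 (edgeR adjusted p = 0.470). Pik3r2 stood at 18.5, 37.4 and 24.6 CPM in vehicle and at 25.5, 25.6 and 30.0 with the drug, a log2 difference of 0.01. Pik3r3 lay between 0.449 and 0.950 CPM in both groups, where its 11 to 22 counts per library leave little to compare. The log2 ratio of Pik3r1 to Pik3cd was therefore lower in vehicle, from -2.04 to -1.68, than in any treated specimen, where it ran from -1.52 to -0.72, a difference that was not tested.

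The calls depended on single libraries, and none was left with a covariate for Y-linked expression. All 3 were lost when any of 8 libraries was left out: vehicle replicates 1, 2 and 3, replicates 8 and 9 of the PI3K inhibitor group, and combination replicates 10, 11 and 12. The 3 calls became 6 without BTK inhibitor replicate 5, where 16.7% of all genes were lower, and 5 without BTK inhibitor replicate 6, where 12.9% were. The log2 difference of Pik3cd itself moved only between -1.09 and -0.87 over the 12 fits with 1 library left out, and that of Pik3r5 between -1.21 and -1.04, while their edgeR adjusted p-values ran from 0.00954 to 0.209 and from 0.00826 to 0.209.

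Set against genes of like length (at most 25% longer or 20% shorter), the subunits lay among neighbours that were also lower. Across tested genes, the median log2 difference with the PI3K inhibitor ran from 1.07 in the shortest decile of length to -0.92 in the longest. Around Pik3cd, 2212 genes of like length had a median of -0.59, 13% of them were called, and 23.8% lay below Pik3cd. Around Pik3r5, 2933 genes had a median of -0.42 and 10.8% lay below it. Around Pik3cg, 1325 genes had a median of -0.77 and 10.3% lay below it. Around Pik3cb, 2605 genes had a median of -0.52 and 19.6% lay below it. Pik3ca and Pik3r1, the longest members, sat above most genes of their length, with 65.8% and 77.6% of them below. For Pik3r6, Pik3r2 and Pik3r3 the medians around them were -0.23, -0.13 and -0.54, with 16.4%, 59.8% and 90.5% of genes below.

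**Figure D3:**
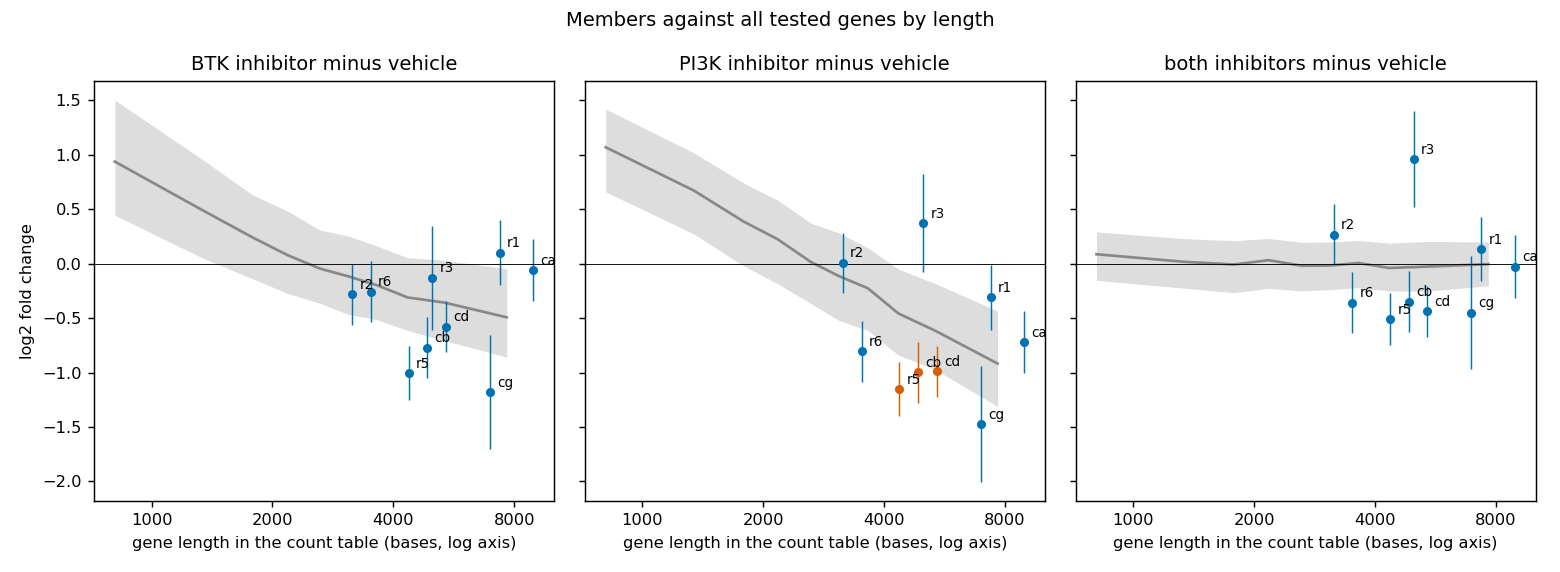
Log2 fold change against vehicle (vertical axis) by gene length (horizontal log axis, bases) for the BTK inhibitor, the PI3K inhibitor and both, with each subunit as a point ± SE and labelled without "Pik3" (orange, adjusted p under 0.05), over the median (grey line) and quartiles (band) of tested genes in deciles of length. With the PI3K inhibitor the grey line falls from 1.07 to -0.92 and Pik3r5, Pik3cg and Pik3r6 lie below the band and Pik3cb and Pik3cd near its lower edge, while Pik3r1 and Pik3r3 lie above it.

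With the length offset, no subunit passed in the comparison of PI3K inhibitor with vehicle, nor did any of the 12742 genes (smallest edgeR adjusted p among subunits, 0.0683, for Pik3r5). The log2 difference of Pik3r5 became -0.75, that of Pik3cg -0.70, that of Pik3r6 -0.59, that of Pik3cb -0.49 and that of Pik3cd -0.41. Pik3ca and Pik3r1 changed sign, to 0.18 and 0.50. BTK inhibitor replicate 5 enters this fit through the shared estimate of spread. With the offset and without that library, Pik3r5 (-0.75, edgeR adjusted p = 0.0116) and Pik3cg (-0.71, edgeR adjusted p = 0.0203) fell, the 2 subunits of the p101 and p110γ enzyme, where 9.05% of 12948 genes were lower. Pik3cd had an edgeR adjusted p = 0.0679 and Pik3r1 one of 0.0564, in opposite directions. Neither call held without vehicle replicate 1 (0.0506 and 0.0653 for Pik3r5 and Pik3cg) or without PI3K inhibitor replicate 9 (0.0633 and 0.0938), and that of Pik3cg was lost without vehicle replicate 2 (0.0590), all by edgeR.

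**Figure D4:**
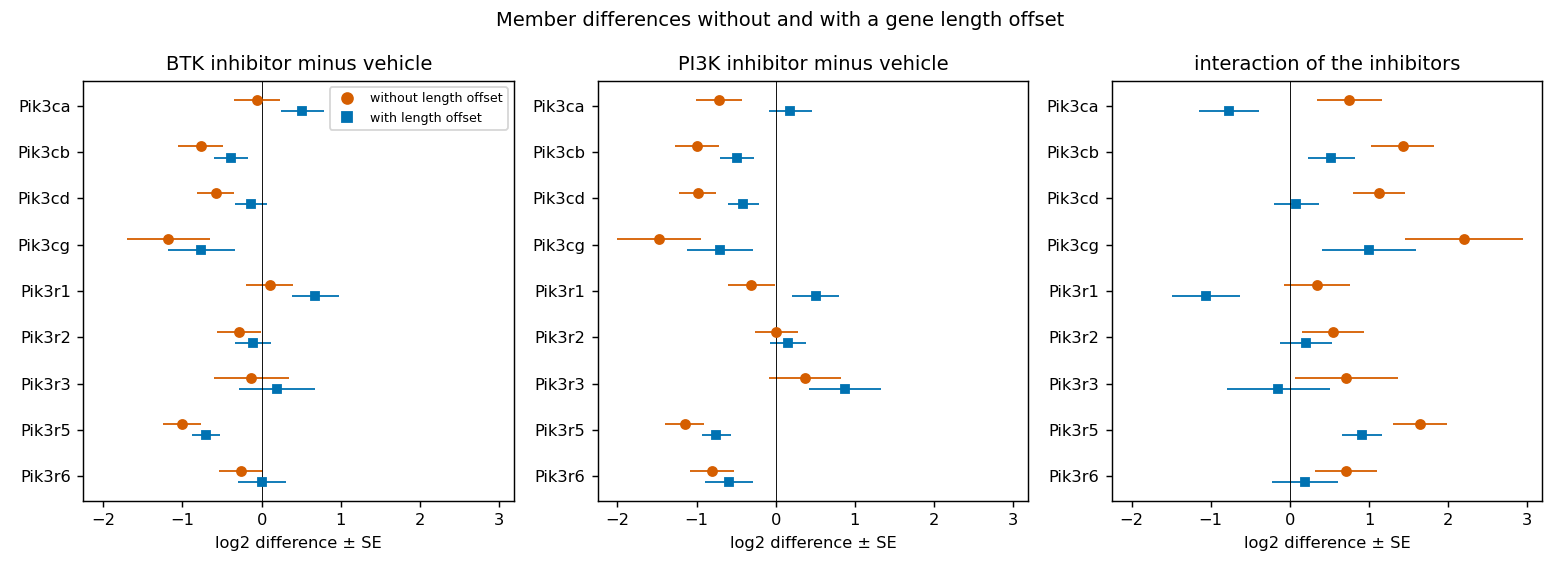
Log2 difference ± SE (horizontal axis) of each subunit without (circles) and with (squares) the gene length offset, for the BTK inhibitor, the PI3K inhibitor and the interaction of both, from all 12 specimens. With the PI3K inhibitor Pik3r5 moves from -1.15 to -0.75 and stays on the negative side, whereas Pik3r1 moves from -0.31 to 0.50.

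With the BTK inhibitor alone, no subunit passed. Of the 9 differences, 8 were negative, with a median of -0.28, and 4 subunits (3153 of all 12742 genes) had an unadjusted p under 0.05, but edgeR called 0 of 9 after adjustment and 0% of all genes. DESeq2 called 1 subunit (Pik3r5) as lower, with 1.37% of all genes, and limma voom with quality weights called 3 (Pik3cd, Pik3cg and Pik3r5) as lower, with 12.1% of all genes. Pik3r5 stood at 34.8, 30.3 and 50.4 CPM, all below vehicle (log2 difference -1.0, edgeR adjusted p = 0.136). Pik3cd stood at 121, 162 and 163 CPM, also all below vehicle (-0.58, edgeR adjusted p = 0.166), and Pik3cb at 46, 35.7 and 59.1 (-0.77, edgeR adjusted p = 0.144). These 3 subunits were those without overlap, as were 9.61% of all genes in that direction. Genes of like length had medians of -0.29 around Pik3r5, -0.35 around Pik3cd and -0.33 around Pik3cb, with 6.31%, 33.5% and 17.0% of them below. With the length offset the differences were -0.70, -0.13 and -0.39.

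Pik3cg ranged widely in this group, at 63.0, 15.5 and 126 CPM (log2 difference -1.18, and -0.76 with the length offset), and Pik3r1 spread from 57.6 to 134. In both genes the extreme value was that of BTK inhibitor replicate 5. In the titles, the calendar date of BTK inhibitor replicate 6 falls on day 30 of the month and that of the others on day 24. This specimen lay nearest to vehicle for Pik3cg, Pik3cb and Pik3r5. Without it, Pik3cb, Pik3cg and Pik3r5 passed as lower, as did 13.3% of all genes, and the log2 difference of Pik3cg was -1.96. What was done on that day is not stated, and its part in the result was not tested.

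With both inhibitors, no subunit passed against vehicle. The median difference was -0.35, and edgeR called 0 of 9 subunits and 0% of all genes, with 1 subunit at an unadjusted p under 0.05. DESeq2 called none and limma voom called 1, Pik3r2, as higher, with 5.98% of all genes. Pik3cd stood at 146, 167 and 178 CPM and Pik3r5 at 45.3, 57.4 and 60.6, the 2 subunits that still lay below every vehicle specimen, where 9.47% of all genes did. Their log2 differences from vehicle were -0.44 and -0.51. Here genes of like length had medians of -0.03 and -0.02, and 9.09% and 6.79% of them lay below Pik3cd and Pik3r5. Pik3cg stood at 92.8, 115 and 133 CPM, which overlaps vehicle, and Pik3r1 at 87.4, 94.8 and 93.2.

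Against the PI3K inhibitor alone, 7 of 9 subunits were higher with both inhibitors without overlap, where 26.5% of all genes were, and all 9 differences were positive, with a median of 0.59. None passed by edgeR, as 0% of all genes did, or by DESeq2, and 4 subunits had an unadjusted p under 0.05, as 3660 of all 12742 genes had. By limma voom 5 were higher, with 20.8% of all genes. Without BTK inhibitor replicate 5, edgeR called 3 as higher, namely Pik3ca, Pik3cg and Pik3r5, with 9.92% of all genes. Genes of like length were also higher, with medians of 0.57 around Pik3cd and 0.41 around Pik3r5, and with the length offset the median of the 9 subunits was 0.09. Against the BTK inhibitor alone, Pik3r2 and Pik3r3 were higher without overlap (8.07% of all genes were), and edgeR called 0 of 9 and 0% of all genes, with 1 at an unadjusted p under 0.05. Genes of like length had medians of 0.14 around Pik3r2 and 0.32 around Pik3r3, whose differences were 0.55 and 1.09. DESeq2 called none there. By limma voom 5 were higher, with 20.3% of all genes, and without BTK inhibitor replicate 6 edgeR called 2 (Pik3cg and Pik3r5) as higher, with 12.1% of all genes.

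Without the length offset, the responses of Pik3cb, Pik3cd, Pik3cg and Pik3r5 were not additive on the log2 scale, and with it none passed. The combination stood above the sum of the single differences for all 9 subunits, and edgeR's interaction test called these 4 of 9 as higher, against 12% of all genes higher and 27.6% changed in either direction. The sum of single differences was -1.57 for Pik3cd and the combination gave -0.44, an interaction of 1.13 (edgeR adjusted p = 0.0265). For Pik3r5 the sum was -2.16 and the combination gave -0.51, an interaction of 1.65 (edgeR adjusted p = 0.0202). For Pik3cg they were -2.65 and -0.45, an interaction of 2.20 (edgeR adjusted p = 0.0430), and for Pik3cb -1.77 and -0.35, an interaction of 1.42 (edgeR adjusted p = 0.0231). All contrasts share the vehicle specimens.

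The interaction also followed gene length. Genes of like length had median interactions of 0.90 around Pik3cd, with 28.6% called, and 1.19 around Pik3cg, with 41.1% called. Around Pik3cb and Pik3r5 the medians were 0.81 and 0.70. With the length offset, no subunit passed (0.00785% of all genes did) and the interaction of Pik3cd was 0.08 (edgeR adjusted p = 0.877), while that of Pik3r5 was 0.91 (edgeR adjusted p = 0.0733). Pik3ca and Pik3r1 then had negative values, -0.76 and -1.06. All 4 calls were lost when vehicle replicate 2, replicate 8 or 9 of the PI3K inhibitor group, or replicate 11 or 12 of the combination was left out, and Pik3cb and Pik3r5 alone passed without vehicle replicate 1 (7.33% of all genes higher) or without BTK inhibitor replicate 4 (5.62%).

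Around the subunits, 60 genes of the pathway were listed and 58 tested. With the PI3K inhibitor, 7 were lower than vehicle and none higher by edgeR, where 5.82% of all genes were lower, and 44 of the 58 differences were negative, with a median of -0.39. Among 11 receptors and adaptors, 3 fell: Cbl (-3.67, edgeR adjusted p = 0.0388), a ubiquitin ligase that binds p85, Irs2 (-2.62, 0.0407), the insulin receptor substrate, and Gab2 (-1.18, 0.0406), an adaptor for p85 and SHP2. Cbl went from a range of 65.8 to 161 CPM in vehicle to one of 5.57 to 13, with no overlap. Among 9 phosphatases and other brakes, Inpp5d (-1.10, 0.0408), which encodes the PIP3 phosphatase SHIP1, and Inpp4a (-1.07, 0.0408) fell.

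Of 9 kinases and lipases recruited by PIP3, only Plcg2 (-1.33, edgeR adjusted p = 0.0471), a phospholipase that BTK activates, fell. Btk itself lay at 88.5 to 108 CPM in vehicle and at 102 to 107 with the PI3K inhibitor. Of 14 genes of the mTOR complexes, only Tsc1 (-1.12, edgeR adjusted p = 0.0442) fell. None of the 4 class II and class III genes tested, which make other phosphoinositides, passed, with Pik3c2a (-1.53, 0.0522) and Pik3c2b (-1.06, 0.0652) having the smallest p by edgeR. None of 11 small GTPases and G protein subunits passed either, with a median of 0.01, and Hras (1.24, 0.0579) and Rac2 (-0.48, 0.299) had the smallest p. With the length offset none of the 58 passed, and Cbl and Irs2 stood at -3.14 and -2.32.

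With the BTK inhibitor and with both inhibitors, edgeR called none of the 58, where 43 and 47 differences were negative and the medians were -0.39 and -0.14. In the interaction, 20 were higher and 2 lower, where 12% of all genes were higher and 27.6% changed in either direction. With the length offset none of the 58 passed and their median went from 0.78 to 0.29. Cbl (4.87), Irs2 (3.89), Inpp4b (2.38) and Rictor (2.34) had the largest positive values, and Hras (-2.19) and Eif4ebp1 (-1.14), a short gene of 981 bases, were the negative ones. Inpp4b, Phlpp1, Inppl1, Inpp4a and Inpp5d, which remove or counter the lipid signal, were among the 20.

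The labelled tissue was checked against markers. Neutrophil, monocyte, erythroid, progenitor, B, T and NK, macrophage and megakaryocyte genes were all detected. Marker levels of several cell types differed between groups. Among comparisons of single groups, edgeR called markers only for the PI3K inhibitor against vehicle, and with the length offset it called none. In bulk RNA, fewer cells of a type and less RNA per cell cannot be told apart. With the PI3K inhibitor, 3 of 10 monocyte markers (Ace, Cx3cr1 and F13a1) and 2 of 11 neutrophil markers (Csf3r and Cxcr2) fell by edgeR, where 5.82% of all genes did. Differences were negative for 9 of the 10 monocyte markers but only 7 of the 11 neutrophil markers. Differences of the 11 erythroid markers tested were all positive, with a median of 1.16. By edgeR 4 of them rose, Gata1, Car2 and Epor among these, as did 617 of all 12742 genes. Hemoglobin genes, which are not in this list, took only 4.87e-06% to 7.13e-05% of counts per library, so erythroid RNA could not be read from them. Of 8 megakaryocyte markers, 1 (Gp9) rose. No B lineage, T and NK, macrophage, progenitor or stromal marker passed. The summed level of the 8 stromal genes ran from 15.5 to 27.3 CPM in vehicle, from 14.1 to 26.4 with the BTK inhibitor, from 27.0 to 47.4 with the PI3K inhibitor and from 52.5 to 179 with both. The summed level of the 10 B lineage genes ran from 126 to 272 CPM in vehicle, from 181 to 512 with the BTK inhibitor, from 194 to 243 with the PI3K inhibitor and from 205 to 259 with both. The summed monocyte level ran from 1997 to 2539 CPM in vehicle and from 1475 to 1927 with the PI3K inhibitor. The summed erythroid level ran from 924 to 3231 and from 3563 to 6899, and with both inhibitors from 4547 to 4860. The summed neutrophil level ran from 87199 to 113158 CPM in vehicle, from 82606 to 216011 with the BTK inhibitor, from 101765 to 199443 with the PI3K inhibitor and from 59996 to 76804 with both. The part of these levels in the subunit results was not tested.

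Over the 12 specimens, the 36 pairs of subunits had a median Pearson r of 0.42 in log2 CPM, from -0.46 to 0.93, given as a description since the specimens share treatment and length trend. Over all 12, the closest pairs were Pik3ca with Pik3r1 (0.93), a class IA catalytic subunit with its most abundant regulatory partner, and Pik3cb with Pik3r5 (0.92). With each library's length trend removed the median was -0.15, Pik3ca with Pik3r1 stayed at 0.95 and Pik3cg with Pik3r1 stood at -0.90. These values moved with BTK inhibitor replicate 5. Without it the medians were 0.66 and -0.06, and Pik3cd with Pik3r5 (0.98) and Pik3cd with Pik3cg (0.96) were closer than Pik3ca with Pik3r1 (0.91). Pik3cg with Pik3r1 then stood at 0.77, and at -0.64 with the trend removed, where it had been -0.11 and -0.90 over all 12.

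Of 9586 other genes, those whose log2 CPM followed Pik3cd most closely over the 12 specimens were Csf2rb (r = 0.987), the shared receptor chain for GM-CSF, interleukin-3 and interleukin-5, then Mfsd6 (0.977), Rin2 (0.974), Kdm6b (0.973) and Kif3b (0.970). The gene most like Pik3cg was Cyfip2 (0.996), and for Pik3r5 it was the histamine receptor Hrh2 (0.976). For Pik3ca it was Prrc2c (0.988), for Pik3cb Cnnm4 (0.991), for Pik3r1 Kif2a (0.971), for Pik3r2 Pmpca (0.954), for Pik3r3 Nek8 (0.921) and for Pik3r6 Mcf2l (0.953). These values are a description, with each library's length trend left in and BTK inhibitor replicate 5 included. Whether the same genes come first without either was not tested.

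In build mm10, as the count table gives it, Pik3cd spans chr4:149649168-149701629 and Pik3cg chr12:32173397-32208649, both on the minus strand. The adaptor genes Pik3r5 (chr11:68432125-68497846) and Pik3r6 (chr11:68503019-68552695) lie side by side on the plus strand. With the BTK inhibitor, where Pik3r5 lay below every vehicle specimen, Pik3r6 stood at 25, 35.3 and 24.8 CPM against 41.9, 27.0 and 32.4 in vehicle, which overlap. No exon of a subunit overlapped another gene of the table. In GENCODE M21, 40 bases of Pik3r2 overlap 6330537M06Rik on the other strand and 1289 bases of Pik3r3 overlap Gm49337 on its own strand, so these counts are less certain.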

How the data were processed

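Bulk RNA libraries were made with a SMART-Seq low-input cDNA kit and Nextera XT, per the labels' protocols, a preparation that does not mark strand. The authors' tools were STAR and featureCounts on mm10, per the submitters' processing notes; their versions are not given in the sources used. The authors deposited raw counts for each gene (whole numbers), beside the gene length, in 1 column for each of 12 specimens (24 samples listed, 2 per specimen).

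Genes were filtered with edgeR 4.0.16 (R 4.3.3; at least 10 counts, total 15), scaled by TMM and tested in 1 model of the 4 groups with the robust quasi-likelihood test and Benjamini-Hochberg adjustment over all genes. CPM were computed over tested genes. The length offset used a natural spline (5 degrees of freedom) per library. DESeq2 1.42.0, limma 3.58.1, other scalings and filters, a covariate for Y-linked expression and leaving out each specimen were alternatives. Y-linked genes together passed 10 CPM in vehicle replicates 1 and 2. Among treated specimens they did so only in replicates 4, 8 and 11, so this was not balanced between vehicle and the treated groups. The procedure was tested on simulated data with no length trend or with slopes mixed among the vehicle, BTK inhibitor and PI3K inhibitor groups. In the real data the slopes differed between these groups, a case the simulation did not cover. Chi-square per degree of freedom between replicates was 21.7 to 670.5, above the sampling noise, so none were merged. Members and lists were chosen with earlier results of these data known. All subunits are named, and some listed genes are not reported here. Of each pathway list the called genes, up to 4 by size, or else the 2 with the smallest p, and for likeness the highest Pearson r (5 genes for Pik3cd, 1 for the others), are named.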

Additional observations from a re-analysis of the deposited data

Results flagged for a closer look

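The response of 4 subunits to an inhibitor differed with the other inhibitor present, by edgeR's interaction test with Benjamini-Hochberg adjustment over all genes. By the same test 12% of all genes were higher and 27.6% changed in either direction. Of genes of like length, 41.1% were called around Pik3cg, 20.6% around Pik3r5, 24.3% around Pik3cb and 28.6% around Pik3cd. The interaction was 2.20 on the log2 scale for Pik3cg, 1.65 for Pik3r5, 1.42 for Pik3cb and 1.13 for Pik3cd. With the length offset the values were 1.00, 0.91, 0.52 and 0.08, and none passed.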

How the results depend on the processing

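No paired analysis was possible because the groups share no replicate number. For the PI3K inhibitor against vehicle (3 subunits called), DESeq2 gave 5, limma voom 6, the fit of only the groups compared 6, and no scaling between libraries, the length offset and the covariate for Y-linked expression 0 each. Over all genes, the 1359 calls became 3203, 4761, 4057, 0, 0 and 0 in that order. Leaving out each specimen gave 0 to 6 subunits and 0 to 4375 genes. The length offset without BTK inhibitor replicate 5 called 2410 genes and, with each further specimen left out (chosen after seeing the data), 0 to 3 subunits. There Pik3r1 rose by 0.60 without PI3K inhibitor replicate 7 (edgeR adjusted p = 0.0377), against -0.31 in the report, the only call that turned direction.

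For the interaction (4 subunits, 3522 genes), limma voom gave 7 subunits and 6729 genes, the length offset 0 and 1, and the offset without BTK inhibitor replicate 5 0 and 539. Without scaling between libraries it gave 1518 genes. Leaving out each specimen gave 0 to 5 subunits and 0 to 5692 genes, and 0 to 1 subunits under the offset with BTK inhibitor replicate 5 also left out.

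Of the comparisons with 0 subunits called, the BTK inhibitor against vehicle gave 1 with DESeq2 (1048 genes), 3 with limma voom (2950 genes) and 0 to 3 with a specimen left out (3809 genes without BTK inhibitor replicate 6). With limma voom the combination gave 1 against vehicle, 5 against the BTK inhibitor and 5 against the PI3K inhibitor (1231, 4973 and 5331 genes). Against the PI3K inhibitor it gave 4 (4004 genes) in the fit of only those groups. Leaving out a specimen gave 0 to 2 against the BTK inhibitor and 0 to 3 against the PI3K inhibitor. The cause of these changes was not tested.

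Over single subunits and settings, 1515 results kept direction and side of the threshold, 138 lost a call, 55 gained it, and 226 changed sign without passing in either fit. Most of the 1515 had no call in either fit. The settings include leaving out the hemoglobin genes, which had too few counts to enter the fit, so agreement there was certain. The report called only 3 subunits for the PI3K inhibitor against vehicle and 4 for the interaction, and the 138 losses are all among these. Depth limits what can be said of Pik3r3, with 1 to 33 counts per library.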
